A study of Mus musculus with 4 samples.

Results

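Antigen presentation puts peptides of a cell's own or ingested proteins on its surface, where T cells read them. In the class I pathway, peptides made by the proteasome are pumped into the endoplasmic reticulum and loaded onto a heavy chain paired with B2m, with the help of Calr and Tapbp. In the class II pathway, peptides are loaded in endosomes, where H2-DMa and its partner chain exchange a placeholder peptide for the final one. Melanoma cells are known for weak class I presentation that interferons can raise, and B16F10 is often used as a model of it.

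The genes described are B2m, Calr, Tapbp and H2-DMa, listed in capitals as B2M, CALR, TAPBP and H2-DMA. They were taken by symbol, not by any measured value. All 4 were found at both gene ends, among 3112 genes at transcription start sites (TSS), 3030 at transcription end sites (TES) and 3117 in either table.

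The data come from mNET-seq, which digests chromatin with micrococcal nuclease, captures RNA polymerase II (Pol II) with an antibody and sequences the short RNA that the polymerase still holds. The control was the parental mouse melanoma line B16F10 and the other group was B16F10 lacking Carm1, an arginine methyltransferase and transcriptional coactivator. The sources used here do not say how the knockout was made or whether it is 1 clone. In each group 1 library was captured through Pol II phosphorylated at serine 2 of its tail (Ser2P), a mark of elongation, and 1 through the tail itself, 4 libraries in all, each pooled from 3 sets of cells.

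The deposited tables hold, gene by gene, a Ser2P ratio for each line at each gene end. Its divisor, its window widths and the scale between libraries are not stated in the labels or headers, so a difference may lie in the Ser2P signal, in the divisor or in the scale. Read depth is unknown. In pooled cells, fewer cells of a kind and less signal per cell cannot be told apart either. With 1 pooled library per group there is no spread between replicates, no test was run, and every value describes these libraries only. A gene is called higher or lower in Carm1 KO when its ratio differed by at least 1.5-fold, which is 0.58 on the log2 scale.

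Most genes had a higher ratio in Carm1 KO. The median change over all compared genes was 1.17 on the log2 scale at the TSS (2859 genes) and 0.85 at the TES (3016 genes), and these medians are the background for each value below. Of the 10 melanocyte markers, 6 were listed at the TSS and 4 at the TES, with Pmel, Tyr and Mlana at both ends. None of the 10 leukocyte markers and none of the 7 fibroblast and endothelial markers was analysed here. Carm1 was not analysed here, and the knockout label was therefore not checked on its target.

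The 4 genes sit in different surroundings, and these matter for what a start or end window can hold. Positions are for GRCm38, with gene models of GENCODE M21. B2m has 4 exons on the plus strand, chr2:122147686-122153083, inside the body of Patl2 on the opposite strand. Calr has 9 exons on the minus strand, chr8:84841850-84846934. A noncoding transcript on the opposite strand starts 254 bases from its start.

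Tapbp and H2-DMa lie on the plus strand of chromosome 17, in or next to the major histocompatibility complex. The annotated Tapbp gene, chr17:33915899-33929292, overlaps all of Zbtb22 on the same strand. Its full-length transcript of 8 exons, Tapbp-201, starts 7 bases past the annotated end of Zbtb22. The annotated H2-DMa gene, chr17:34119541-34139101, reaches into Brd2 on the opposite strand. Its 6-exon coding transcript starts 198 bases from the Brd2 start, so that both genes are read outward from a shared stretch. Another H2-DMa coding transcript, of 5 exons, starts 12796 bases further downstream. The labels do not say which of these starts the authors used.

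**Figure D1:**
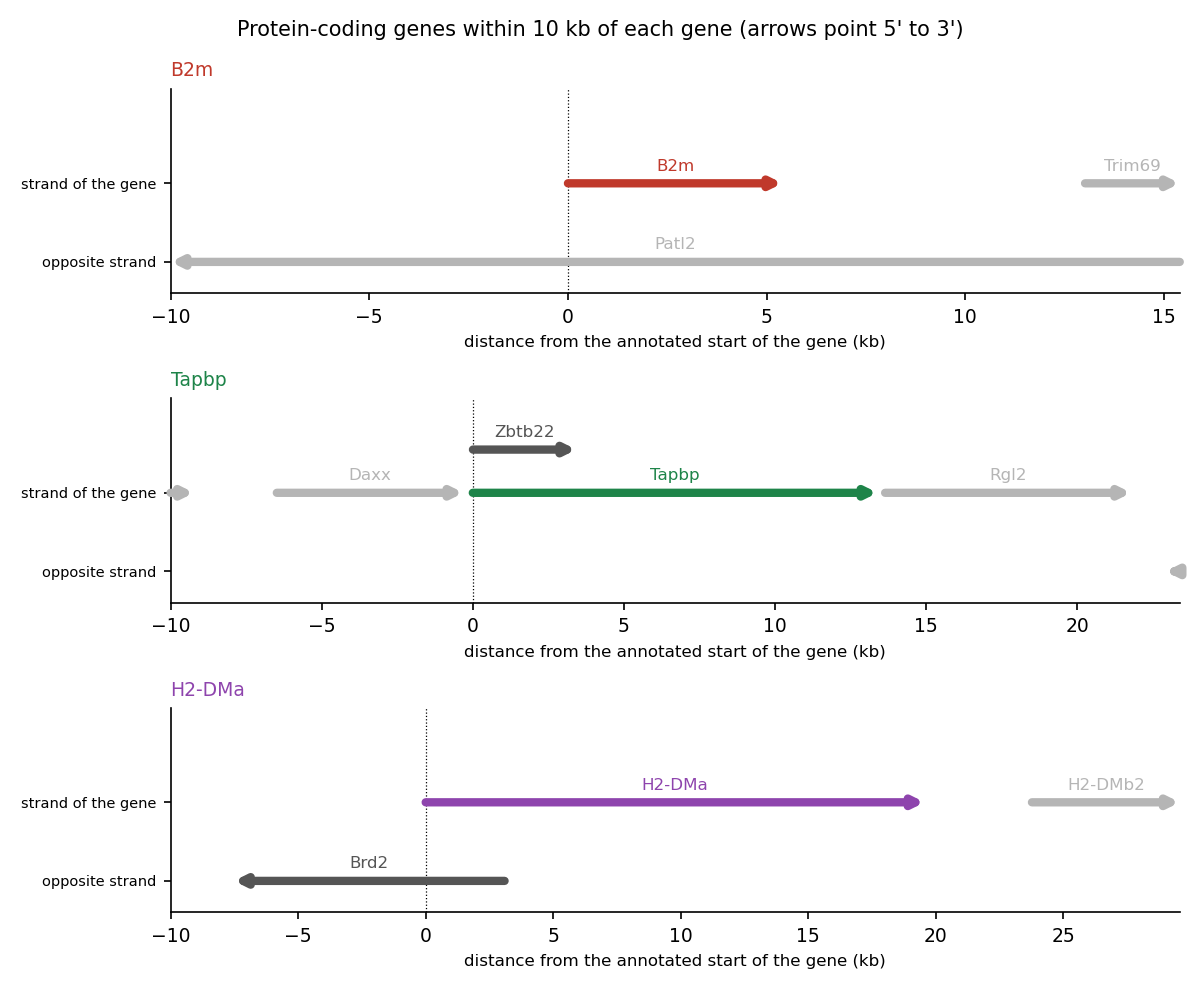
Protein-coding genes within 10 kb of B2m, Tapbp and H2-DMa, drawn to scale within each panel. The x axis is the distance in kb from the annotated start of the named gene, arrows point from 5′ to 3′, the upper lines are the strand of that gene and the lower line the opposite strand, dark grey genes have values in the tables and light grey genes were not analysed here (those at an edge are unlabelled). Zbtb22 lies within Tapbp on the same strand, and Brd2 runs the other way across the annotated start of H2-DMa.

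The sequences just upstream of the start show how unlike these promoters are, and are given from RefSeq (GRCm38.p6), 200 bases each, on the strand of the gene. Tapbp is left out because the same stretch lies in exons of Zbtb22 and of Tapbp. Capitals mark matches to 4 motifs searched on both strands. These were the repeat GAAANNGAA found at the core of interferon response elements, the CCAAT box bound by the factor NF-Y, the TATAA box of focused starts, and the GGGCGG box of Sp-family factors. The windows are chr2:122147487-122147686 for B2m, chr8:84846932-84847131 for Calr and chr17:34122632-34122831 for H2-DMa.
B2m: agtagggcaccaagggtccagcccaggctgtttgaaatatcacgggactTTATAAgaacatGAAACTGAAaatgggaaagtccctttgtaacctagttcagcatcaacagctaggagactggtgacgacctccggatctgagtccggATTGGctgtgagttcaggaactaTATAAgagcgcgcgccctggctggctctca
Calr: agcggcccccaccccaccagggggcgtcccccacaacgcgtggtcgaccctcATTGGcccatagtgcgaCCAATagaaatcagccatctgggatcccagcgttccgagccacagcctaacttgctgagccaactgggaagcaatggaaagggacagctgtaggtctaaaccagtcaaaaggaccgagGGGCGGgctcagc
H2-DMa: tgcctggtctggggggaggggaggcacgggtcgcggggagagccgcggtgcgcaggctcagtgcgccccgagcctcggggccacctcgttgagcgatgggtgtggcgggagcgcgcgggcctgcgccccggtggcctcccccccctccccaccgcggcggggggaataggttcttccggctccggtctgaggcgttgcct

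The B2m window holds GAAANNGAA once, starting at position -139 from the RefSeq start, CCAAT once on the opposite strand, at -53, and TATAA 3 times, at -151 and -150 on opposite strands and overlapping, and at -30. Among the upstream windows of 32851 RefSeq starts, 5.57% hold GAAANNGAA, 29.3% CCAAT, 18.5% TATAA and 31.0% GGGCGG. The Calr window holds CCAAT at -148 and -131, in opposite orientations, and GGGCGG at -13. The H2-DMa window, which is the stretch between Brd2 and H2-DMa, holds none of the 4 motifs and is 76.5% G or C, against a median of 53% over all windows. A match is a string of letters and not a site of binding.

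The ends are shown by up to 30 bases around the poly(A) hexamer, AATAAA or ATTAAA, in capitals, from GENCODE transcripts (GRCm38). The windows, all on the plus strand, are chr2:122153054-122153083 for B2m, chr17:33929258-33929287 for Tapbp, chr17:34139048-34139077 for H2-DMa and chr17:33919289-33919318 for Zbtb22.
B2m: ttttgttacttttactaaaAATAAAaaact
Tapbp: tcctcgtgagctAATAAAgtctttccgagt
H2-DMa: cctcttccaggaAATAAActtcatttctta
Zbtb22: tttttaacggtgATTAAAatatttattggt

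The Zbtb22 hexamer begins 25 bases before the annotated end of that gene, directly ahead of the Tapbp-201 start. The last 50 bases of the Calr transcript hold neither hexamer, so no Calr sequence is shown.

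B2m, the light chain that every classical class I molecule needs, had a lower ratio at its start and a higher one at its end in Carm1 KO. At the TSS its ratio was 0.0363 in control and 0.0164 in Carm1 KO, which is 2.21-fold lower (-1.14 on the log2 scale). At the TES its ratio was 1.65 in control and 2.89 in Carm1 KO, 1.75-fold higher (0.81). Only the start value stood far from other genes, and it rests on small ratios. With 0.05 added to each ratio the start change was -0.38, and with 0.1 added -0.23, neither past 1.5-fold.

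The B2m start change ranked 2798 of 2859 genes from the highest, and 2.13% of the other genes lay below it. At least 1.5-fold lower at the TSS were 5.6% of genes. The start ratio itself was low before any comparison, rank 2474 of 3112 in control, and ranked 2889 in Carm1 KO. Its control value at the TSS was shared exactly with 1 other gene, Mrto4. The end ratio of B2m was ordinary in both groups, 0.969 times the median of all genes in control and 0.967 times in Carm1 KO. With the median change subtracted, the start was at -2.31 and the end at -0.04 on the log2 scale.

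A lower start with a higher end, each by at least 1.5-fold, was found for 95 of the 2775 genes that were above 0 in all 4 columns (3.42%), B2m among them. Both ends higher by that factor was the commoner pattern, with 1365 genes (49.2%). Calr, Tapbp and H2-DMa all had it.

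Calr, a chaperone that holds the newly made heavy chain and bridges it to the loading complex, had higher ratios in Carm1 KO at both ends. At the TSS its ratio was 0.0148 in control and 0.0617 in Carm1 KO, 4.16-fold higher (2.06 on the log2 scale). At the TES it was 0.758 in control and 1.61 in Carm1 KO, 2.12-fold higher (1.09). The values that these changes start from were among the lowest listed.

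The Calr control ratio ranked 2865 of 3112 at the TSS and 2756 of 3030 at the TES. Its start change ranked 584 of 2859 and its end change 941 of 3016. The decile of genes with the lowest control ratios at the TSS, to which Calr belongs, had a median change of 2.64, which is above the change of Calr. Relative to that decile Calr was at -0.58 on the log2 scale, while relative to all genes it was at 0.89. So the direction of Calr at the TSS relative to other genes turns with the genes it is compared with. That decile was picked on the control ratio, which also divides the change, so its median change tends to be high by construction.

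Tapbp, or tapasin, tethers the heavy chain to the peptide transporter and edits the peptides that are bound. It also had higher ratios in Carm1 KO at both ends. At the TSS its ratio was 0.815 in control and 2.25 in Carm1 KO, 2.76-fold higher (1.47 on the log2 scale). At the TES it was 0.934 in control and 1.46 in Carm1 KO, 1.56-fold higher (0.64).

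Both Tapbp changes were near those of other genes, rank 1100 of 2859 at the TSS and 1922 of 3016 at the TES. With the median of all genes subtracted they were 0.30 and -0.21 on the log2 scale, so neither was then past 1.5-fold and the end turned direction. What set Tapbp apart was the level at its start. It was 10.07 times the median of all genes in control and 13.6 times in Carm1 KO, rank 198 and rank 212 of 3112. At its end the ratio was below the median, 0.547 times in control and 0.488 times in Carm1 KO.

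The control start ratio of Tapbp lay between the quartiles of genes that begin where a neighbour ends. Whether the neighbour sets that level was not tested. This grouping was made after the values were seen. The start of every coding transcript tagged basic in GENCODE was set against the outermost annotated start and end of other coding genes. Among protein-coding genes listed at the TSS, 169 had such an end of another gene on the same strand within 1 kb of a start. Their median control ratio at the TSS was 0.747, with quartiles at 0.421 and 1.05. It was 0.0779 over 732 genes with such a start on the opposite strand within 1 kb but no such end, and 0.0758 over 1962 genes with neither. Starts inside another gene's outermost bounds are not seen this way, and Brd2 counts among the 1962 although an H2-DMa transcript starts close by. Within the group of 169, 56.0% of the other genes lay below Tapbp in control and 62.5% in Carm1 KO.

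The Tapbp start values were close to the end values of Zbtb22, a zinc finger gene. The Zbtb22 TES ratio was 0.774 in control and 2.08 in Carm1 KO, a change of 1.43, beside 1.47 at the Tapbp TSS. There were 60 such pairs with values above 0 in both groups, Zbtb22 and Tapbp among them. The log2 of the downstream start ratio over the upstream end ratio had a median of -0.0036 in control and 0.043 in Carm1 KO. For a gene's own start over its own end the medians were -4.29 and -3.97 over 2775 genes. Whether both windows of a pair count the same reads was not tested, because the labels give no window widths. The annotated start of the Tapbp gene gives another possible window: it lies 5 bases from the Zbtb22 start and 309 bases past the annotated end of Daxx. The Zbtb22 TSS ratio was 0.608 in control and 2.06 in Carm1 KO, a change of 1.76. The value listed for the Tapbp start therefore cannot be told apart from signal at either end of Zbtb22.

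H2-DMa encodes the alpha chain of the class II peptide exchanger. Of the 4 genes it had by far the largest change at the TES, and at the TSS a change next to that of Calr. At the TSS its ratio was 0.253 in control and 1.08 in Carm1 KO, 4.28-fold higher (2.098 on the log2 scale). At the TES it was 0.343 in control and 4.83 in Carm1 KO, 14.1-fold higher (3.82).

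The H2-DMa end change ranked 6 of 3016 genes and its start change 562 of 2859. At the TES its control ratio was among the lowest, rank 2953 of 3030 and 0.201 times the median of all genes, and its Carm1 KO ratio ranked 769. Both end values are coarse: exactly the same control value was listed for 4 other genes and the same Carm1 KO value for 3 others. With the median of all genes subtracted, H2-DMa was at 0.93 at the TSS and 2.97 at the TES.

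The start ratio of H2-DMa was high within the group of 732, with 91.8% of its other genes lying below it in control and 94.1% in Carm1 KO. Brd2, a bromodomain protein gene read from the other side of the same stretch, had lower TSS ratios, 0.0332 in control against 0.128 in Carm1 KO. Its change, 1.95 on the log2 scale, was near the 2.098 of H2-DMa. Changes of this size were common, as the upper quartile of all genes at the TSS was 1.89. At the TES, Brd2 had 1.23 in control and 2.25 in Carm1 KO, a change of 0.87. No source used here gives the strand setting of the counting, so reads of overlapping genes on opposite strands cannot be told apart.

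**Figure D2:**
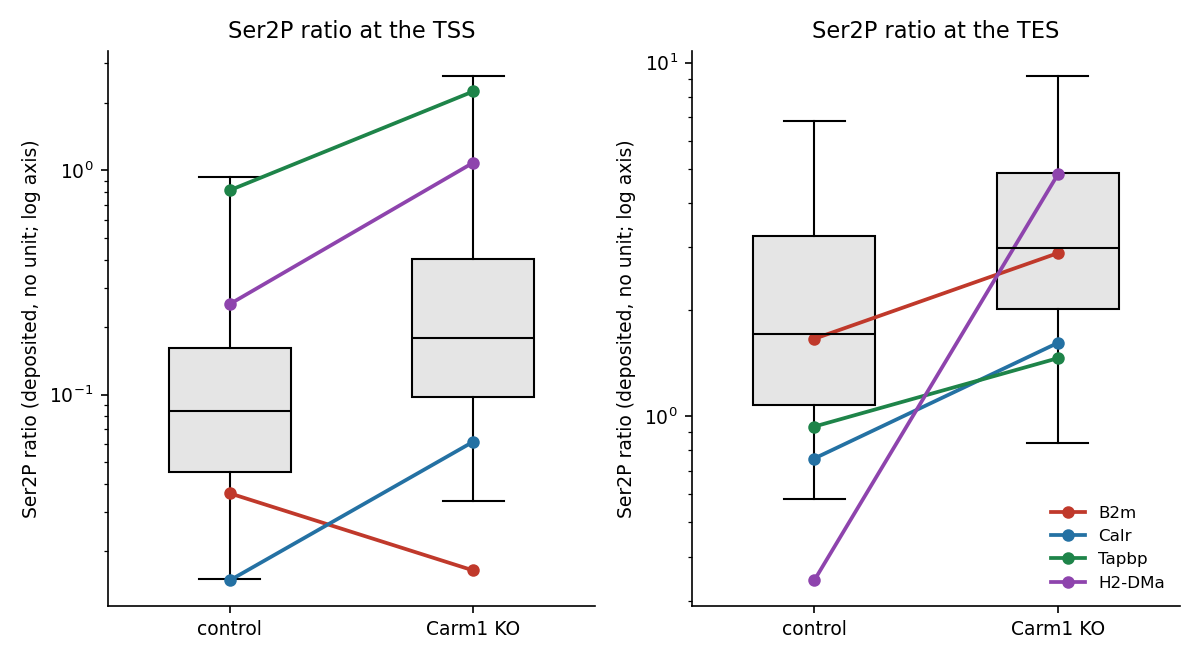
Ser2P ratio of B2m, Calr, Tapbp and H2-DMa in control and Carm1 KO cells at the TSS (left) and TES (right), on log axes, 1 library per group. Grey boxes show the quartiles and median of all listed genes above 0, with whiskers at the 5th and 95th percentiles. B2m is the line that falls at the TSS, from 0.0363 to 0.0164, and H2-DMa is the steep line at the TES, from 0.343 to 4.83.

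Of the 4 genes, 3 were at least 1.5-fold higher and 1 was lower at the TSS, where 71.2% of all genes were higher and 5.6% lower. At the TES all 4 were higher, where 66.7% of all genes were higher and 7.13% lower. With the median of all genes subtracted, the all-gene counts became 819 higher and 823 lower of 2859 (TSS) and 349 and 664 of 3016 (TES). Calr and H2-DMa were then higher and B2m lower at the TSS, and only H2-DMa was higher at the TES. With only 4 genes, nothing is read from these counts. What differed among the 4 was level and rank.

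The spread of levels among the 4 genes was wide at the starts and narrow at the ends. At the TSS the order from the highest was Tapbp, H2-DMa, B2m, Calr in control, with Tapbp 55.0 times Calr. In Carm1 KO it was Tapbp, H2-DMa, Calr, B2m, with Tapbp 137.2 times B2m. Both spreads rest on the Tapbp start value, which cannot be told apart from Zbtb22 signal, and on small Calr or B2m ratios. At the TES the order was B2m, Tapbp, Calr, H2-DMa in control, with B2m 4.83 times H2-DMa. In Carm1 KO it was H2-DMa, B2m, Calr, Tapbp, with H2-DMa 3.31 times Tapbp. H2-DMa thus went from the lowest end ratio of the 4 to the highest. Without replicates it cannot be said which neighbours in these orders differ.

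**Figure D3:**
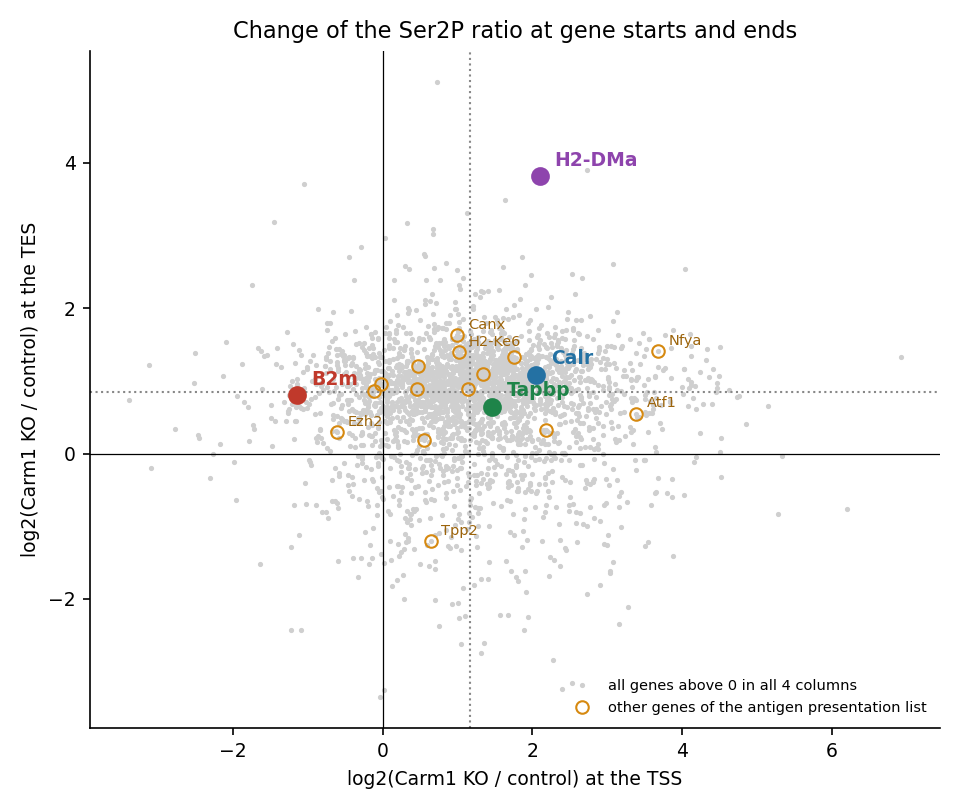
Change of the Ser2P ratio at the TSS (x axis) and TES (y axis), as log2(Carm1 KO / control), for the 2775 genes above 0 in all 4 columns (grey), the 4 genes (filled) and the other listed genes of the antigen presentation lists (open circles). Dotted lines are the medians of the genes drawn. B2m lies left of 0 at the TSS, Calr and Tapbp lie within the grey cloud, and H2-DMa lies near the top of the plot.

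The TES ratio divided by the TSS ratio gives the rise of the Ser2P ratio along a gene, here called the gradient. A scale factor common to both windows of a library cancels in it. Over 2775 genes the median gradient was 19.5 in control and 15.7 in Carm1 KO, and the typical gene became flatter, by a median log2 change of -0.40. Among the 4 genes, B2m and Calr were the steeper pair, and Tapbp and H2-DMa the flatter pair. In control, B2m and Calr still lay below the upper quartile of all genes, 54.5.

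B2m had a gradient of 45.6 in control and 176.2 in Carm1 KO, 3.86-fold steeper (1.95 on the log2 scale). It ranked 788 of 2775 in control and 74 in Carm1 KO, and its change ranked 91. Calr had a gradient of 51.2 in control and 26.1 in Carm1 KO, 1.96-fold flatter (-0.97). Its rank was 729 of 2775 in control and 973 in Carm1 KO. The direction for Calr depends on the setting: with 0.05 added to each ratio its gradient change was 0.25, the other direction, while that of B2m was 1.17.

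Tapbp had a gradient of 1.15 in control and 0.647 in Carm1 KO, 1.77-fold flatter (-0.82). In Carm1 KO its start ratio was above its end ratio, as it was for 171 genes (6.16%). The start value in this gradient cannot be told apart from Zbtb22 signal. Rgl2 starts 251 bases past the Tapbp end on the same strand, so the end window may hold signal of Rgl2 too. The Tapbp gradient is therefore not a measured profile of Tapbp alone. H2-DMa had a gradient of 1.35 in control and 4.46 in Carm1 KO, 3.29-fold steeper (1.72), and its change ranked 140. Both end values behind it are coarse, and the labels do not say which H2-DMa start was used. In control 279 genes had a gradient below 2, and both Tapbp and H2-DMa were among them.

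Steeper by at least 1.5-fold were 19.8% of all genes and flatter 44.2%, beside 2 genes each way here. With the median subtracted the all-gene counts were 849 steeper and 891 flatter. Calr and Tapbp were no longer past 1.5-fold once the median of all genes was subtracted, at -0.57 and -0.42. B2m and H2-DMa were then at 2.35 and 2.12.

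**Figure D4:**
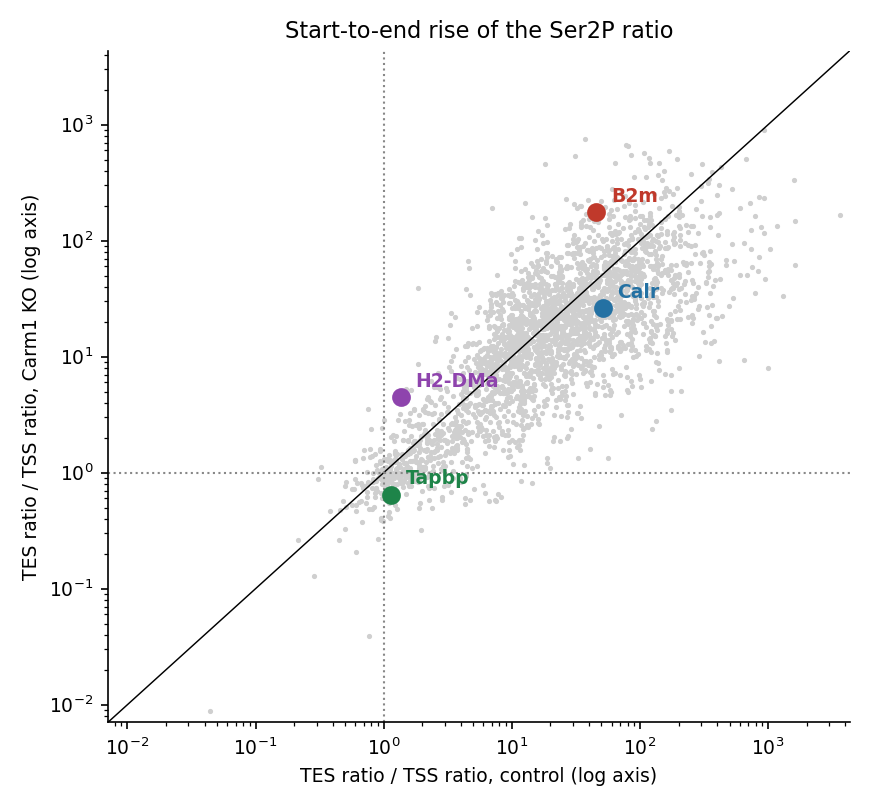
TES ratio divided by TSS ratio in control (x axis) and Carm1 KO cells (y axis), both on log axes, for 2775 genes (grey) and the 4 genes. The solid line marks equal gradients and dotted lines a gradient of 1. B2m and H2-DMa lie above the solid line, Calr and Tapbp below it, and Tapbp lies near 1 on both axes.

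The genes with the most similar pattern were sought by the distance over the 4 log2 ratios, among 2774 other genes. Nearest to B2m was Mrto4, a ribosome biogenesis gene, at a distance of 0.16, which had 0.0363 and 0.0164 at its start and 1.57 and 3.20 at its end. Glrx5, for iron-sulfur clusters, followed at 0.37 and Bambi, a decoy receptor of TGF-beta signalling, at 0.44. All 3 had lower start and higher end ratios in Carm1 KO, which follows from matching on these same ratios.

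Nearest to Calr were Apbb3 (distance 0.50), Cdpf1 (0.57) and the splicing factor gene Srsf1 (0.58). Nearest to Tapbp were Prrt2 (0.36), the cytochrome oxidase assembly gene Cox14 (0.37) and Taf10 (0.38), a subunit of the initiation factor TFIID. Each of these 3 has another gene's end within 1 kb of a start on the same strand, as Tapbp does. They were matched on the start ratio, which is high in that group, so the shared trait is not independent of the matching. H2-DMa had no close match. Smg5, of nonsense-mediated decay, was at a distance of 1.40, the predicted gene Gm10575 at 1.56 and Vars2, a mitochondrial tRNA synthetase gene, at 1.65.

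A wider list of 97 symbols in 6 roles was used for context, of which 20 were listed at the TSS and 19 at the TES. It had 12 genes higher and 2 lower of 19 compared at the TSS, with a median change of 1.02, beside 71.2% higher, 5.6% lower and a median of 1.17 for all genes. At the TES it had 14 higher and 1 lower of 19, with a median of 0.90, beside 66.7% higher, 7.13% lower and a median of 0.85 for all genes. These counts, and those of the roles below, with at most 7 compared genes each, are read against these shares and single out no role. Leaving out the 4 genes, the medians over 15 genes were 1.00 and 0.90.

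Of 14 genes for class I loading and folding, 4 were higher and 1 lower of 7 compared at the TSS, and 7 of 7 were higher at the TES, beside 71.2%, 5.6% and 66.7% of all genes. Besides B2m, Calr and Tapbp these include Canx, the membrane chaperone of heavy chains, which went from 0.0482 to 0.0965 at the TSS and from 1.64 to 5.07 at the TES. That end change, 1.63, ranked 186 of 3016. Pdia3, the thiol oxidoreductase of the loading complex, had TSS ratios of 0.0640 and 0.0631 and TES ratios of 2.75 and 5.33.

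P4hb, a disulfide isomerase, had TSS ratios of 0.521 and 0.715 and TES ratios of 1.53 and 2.85. Ganab, a glucosidase subunit that trims the sugars Calr and Canx bind, had start ratios of 0.603 and 2.04 and end ratios of 1.43 and 3.61. Ganab also has another gene's end within 1 kb of a start. P4hb belongs to the group of 1962 genes with neither kind of neighbour. Of the other genes in that group, 91.1% lay below it in control and 83.9% in Carm1 KO. Erap1, which trims peptides in the endoplasmic reticulum, was 0.0548 in control and listed at 0 in Carm1 KO at the TSS. No fold is given for it, and its end was not analysed here.

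None of 27 class I and class I-like heavy chain genes was analysed here, nor were the peptide transporter genes Tap1 and Tap2. Of 20 class II genes 3 were compared, with 2 higher at the TSS and 3 at the TES, beside 71.2% and 66.7% of all genes. Besides H2-DMa these were the lysosomal proteases Ctsl, with changes of 1.34 (TSS) and 1.09 (TES), and Ctsd, with -0.11 and 0.86. The only other symbol starting with H2- was H2-Ke6, which lies in the complex but encodes a dehydrogenase. Its start ratios were 0.914 and 1.85 and its end ratios 0.568 and 1.49. Its start lies within 1 kb of the end of Slc39a7, whose TES ratios were 0.815 and 1.797.

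In peptide supply 3 genes were compared. Psme3, a proteasome activator, had log2 changes of 1.14 (TSS) and 0.89 (TES). The peptidase gene Nrd1 had 2.18 and 0.32. Tpp2, a cytosolic peptidase, was at 0.65 at the TSS and was the 1 gene of the list that was lower at the TES, from 4.07 to 1.76.

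Among regulators of class I and class II promoters 5 were compared. Nfya, a subunit of the factor that binds CCAAT, went from 0.0039 to 0.0497 at its start, rank 63 of 2859 by change, with a TES change of 1.42. Atf1 went from 0.0332 to 0.348 at the TSS, rank 105, and had 0.55 at the TES. Creb1, of the same family, had 0.56 and 0.18. The Polycomb gene Ezh2 had -0.61 and 0.29, and its partner Eed 0.47 and 1.21.

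**Figure D5:**
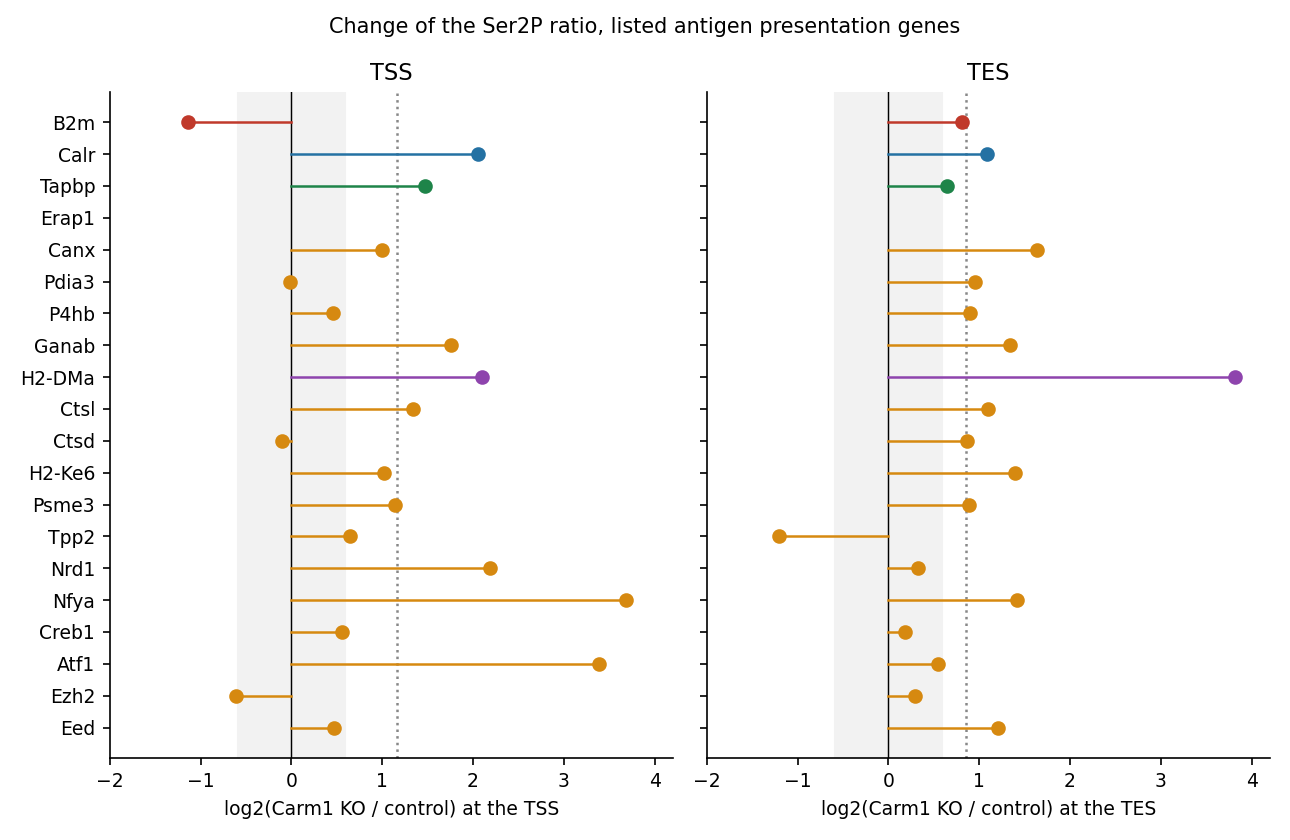
log2(Carm1 KO / control) of the Ser2P ratio at the TSS (left) and TES (right) for each listed antigen presentation gene, 1 library per group. The grey band spans less than 1.5-fold and the dotted line is the median of all genes. B2m and Ezh2 are past the band on the lower side at the TSS, Tpp2 at the TES, and H2-DMa has the longest line at the TES. Erap1 has no point, because its start ratio is listed at 0 in Carm1 KO and its end was not analysed here.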

How the data were processed

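The data were 2 tables deposited by the authors, of Ser2P ratios at the TSS and TES. Their headers call the values fractions, but they pass 1, so they were used as a linear ratio, per the file headers of Ser2P signal against a signal not named. The submitters' processing notes name cutadapt 1.18, TopHat2 2.1.1, mm10 and GRCm38, with no settings. The deposited difference equals Carm1 KO minus control within 1e-09. Columns were assigned by name, which gives the cells and Ser2.

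Changes are log2 of the Carm1 KO ratio over the control ratio, nothing being added, and genes listed at 0 were not compared. Ranks run from the highest, and tied values share a rank. Upper-case symbols were looked up in GENCODE M21, which held 3066 of 3112 TSS and 2985 of 3030 TES genes. RefSeq gave upstream sequence for all 4 genes, and 3 are shown. Python 3.11.15 with pandas 2.3.3 was used, and the functions were tested on simulated data. The genes, lists and rules were chosen with earlier results of these data known. Named genes are the 4 genes, listed genes of the wider list, the 3 nearest by pattern to each, and genes within 10 kb shown on the map. Slc39a7 and 3 melanocyte markers were named outside this rule, after their values were seen. Some nearby genes are not reported here. The self-chosen groups by neighbouring ends came after the values were seen.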

Additional observations from a re-analysis of the deposited data

How the results depend on the processing

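Each change was recomputed under other settings, and 29 of 48 such values for the 4 genes kept direction and side of 1.5-fold. With the median of all genes subtracted, the log2 change at the TES was -0.044 for B2m, 0.24 for Calr and -0.21 for Tapbp, at the TSS 0.30 for Tapbp, and on the gradient -0.57 for Calr and -0.42 for Tapbp. With the median of the length decile subtracted, the TES values were -0.088, 0.19 and -0.36 for B2m, Calr and Tapbp and the TSS value of Tapbp was 0.39. With the median of the decile of equal control ratio subtracted, they were -0.15, 0.10 and -0.37 at the TES, and at the TSS 0.076 for Tapbp and -0.58 for Calr. With 0.05 added to each ratio, B2m at the TSS was -0.38 and the Calr gradient 0.25. With 0.1 added, B2m at the TSS was -0.23 and Calr 0.49. The TSS ratios of both genes lie below or near those constants, which shrinks the change by construction. H2-DMa kept direction and side at both ends and on the gradient under every setting run. None of these settings tests how many reads lie behind its coarse end values.

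Over all genes, 2036 of 2859 were higher and 160 lower at the TSS, and 819 and 823 with the median subtracted. The lower count was 83 at 2-fold, 85 without the lowest 25% of genes by mean ratio and 73 with 0.05 added. At the TES, 2013 of 3016 were higher and 215 lower, 1143 and 121 at 2-fold, and 349 and 664 with the median subtracted. On the gradient, 550 were higher, 337 at 2-fold and 849 with the median subtracted. In the wider list, the median subtracted gave 6 higher and 7 lower of 19 TSS values, and 2 and 2 of 19 TES values. At 2-fold 11 were higher and 1 was lower at the TSS, where 1621 of all genes were higher. At the TES 8 were higher and 1 was lower at 2-fold. No paired analysis was possible because each group has 1 library. No replicate could be left out for the same reason. Unknown depth limits every value.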
